A study of Homo sapiens with 27 samples.

Results

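The nuclear exosome and the factors that bring RNA to it were followed through 27 RNA libraries of control cells and of cells depleted of the nuclear basket protein TPR. The 10 genes were MTREX, ZFC3H1, PABPN1, ZCCHC8, RBM7, ZC3H18, EXOSC10, DIS3, EXOSC3 and EXOSC2, out of 34464 genes in the deposited table. They were chosen by symbol and not by their values, though with earlier results of these data known. Each had 1 row, and all 10 passed the minimum of a mean above 1 FPKM, which 14611 genes passed. FPKM is the number of fragments scaled to transcript length and library size, so that levels of different genes are per length.

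The cells were U2OS, a human osteosarcoma line. They carried, by lentivirus and under puromycin, either a control shRNA, which stands for cells with normal TPR, or one of the shRNAs 'TPR A' and 'TPR D' against TPR, for 5 days. Each shRNA had 3 replicate cultures. Detergent divided each culture into nuclei and a cytoplasmic/ER fraction, and poly(A)+ RNA of both and of undivided (total) cells was sequenced. In such bulk samples, fewer cells that carry an RNA and less of it per cell cannot be told apart. No scaling to an added standard is given in the sources used here, so a nuclear to cytoplasmic/ER ratio is relative to the other genes of the same libraries and not a ratio of molecules.

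The exosome is a ring of subunits that passes RNA to nucleases. In the nucleus, the helicase MTREX (MTR4) unwinds RNA for the exosome and works with adaptors that choose the RNA. Its best known partners are the NEXT complex, built on the scaffold ZCCHC8 and the RNA-binding protein RBM7, and the PAXT connection, in which the zinc finger protein ZFC3H1 meets the poly(A)-binding protein PABPN1. ZC3H18 links these adaptors to the cap-binding complex. EXOSC10 (RRP6) and DIS3 are the nucleases, and EXOSC3 and EXOSC2 are cap subunits of the ring that contact RNA. PAXT acts on polyadenylated RNAs held in the nucleus, among them spliced hosts of small nucleolar RNAs.

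TPR fell with both shRNAs. In total RNA it stood at 28.2, 25.7 and 25.3 FPKM in the control cultures, at 4.36, 3.44 and 4.70 FPKM in the TPR A cultures and at 3.23, 4.74 and 6.01 FPKM in the TPR D cultures, with no overlap. The log2 change was -2.59 (SE 0.36, limma adjusted p = 0.00120) for TPR A and -2.44 (SE 0.36, limma adjusted p = 0.00160) for TPR D. Judged by the size of 1 read in low values, a transcript of 1 kb at 1 FPKM had been read 31.4 to 86.6 times in the 27 libraries. Reads of the members were estimated from this with the length of the canonical mRNA. The member with the fewest reads in any library was then ZFC3H1, with an estimated 114, and the other members had at least 679. The length behind each deposited FPKM is not given in the sources used here, and a shorter one would lower the estimate. Of 6 bone and mesenchyme markers, VIM (854 to 2662 FPKM), SPARC (269 to 949 FPKM), COL1A1 (20.6 to 87.5 FPKM) and RUNX2 (6.25 to 25.1 FPKM) were present in every library, ALPL was lower (1.02 to 16.0 FPKM) and COL1A2 was below 1 FPKM in each (0.0302 to 0.744 FPKM). Of the epithelial markers KRT8 was high (281 to 2319 FPKM), EPCAM low (1.43 to 6.87 FPKM) and CDH1 lower still (0.216 to 1.67 FPKM), and the blood marker PTPRC was at 0.0271 to 1.22 FPKM.

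The libraries labelled control replicate 2 stood apart. Genes of the mitochondrial genome, whose RNA lies outside the nucleus, took 21.8% of the FPKM in its nuclear library and 0.774% to 2.42% in the other 8 nuclear libraries. They took 0.738% in its total library against 15.8% to 24.7% in the other 8. The share in its nuclear library is thus within the range of the total libraries, and that in its total library is near the range of the nuclear libraries. An exchange of the pair is possible and was not tested. Both libraries were kept under their labels, which bears on every control value in nuclear and total RNA, and the main results that rest on them are also given without that culture.

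In total RNA of control cells, transcripts of the members spanned a wide range. PABPN1 was the highest, at 112 ± 17.1 FPKM (SD, n = 3), and ZFC3H1, its PAXT partner, the lowest, at 5.60 ± 1.27 FPKM. MTREX, which both adaptors share, followed PABPN1 at 80.7 ± 34.1 FPKM. EXOSC3 (58.8 ± 16.3 FPKM), ZC3H18 (54.4 ± 43.2 FPKM), EXOSC10 (48.1 ± 24.4 FPKM), RBM7 (42.8 ± 10.5 FPKM) and EXOSC2 (42.6 ± 16.2 FPKM) came next. The scaffold ZCCHC8 stood at 16.4 ± 3.65 FPKM and the nuclease DIS3 at 12.04 ± 2.47 FPKM. Along this order only EXOSC2 and ZCCHC8, and DIS3 and ZFC3H1, were neighbours whose control cultures did not overlap. Part of this order rested on the total library of control replicate 2. In the other 2 control cultures the mean of ZC3H18 was 29.7 FPKM, which placed it below RBM7 (48.8 FPKM), EXOSC10 (34.3 FPKM) and EXOSC2 (33.8 FPKM), and MTREX was at 61.1 FPKM. With and without that library PABPN1 was the highest and ZFC3H1 the lowest, and RBM7 was above its NEXT partner ZCCHC8.

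**Figure D1:**
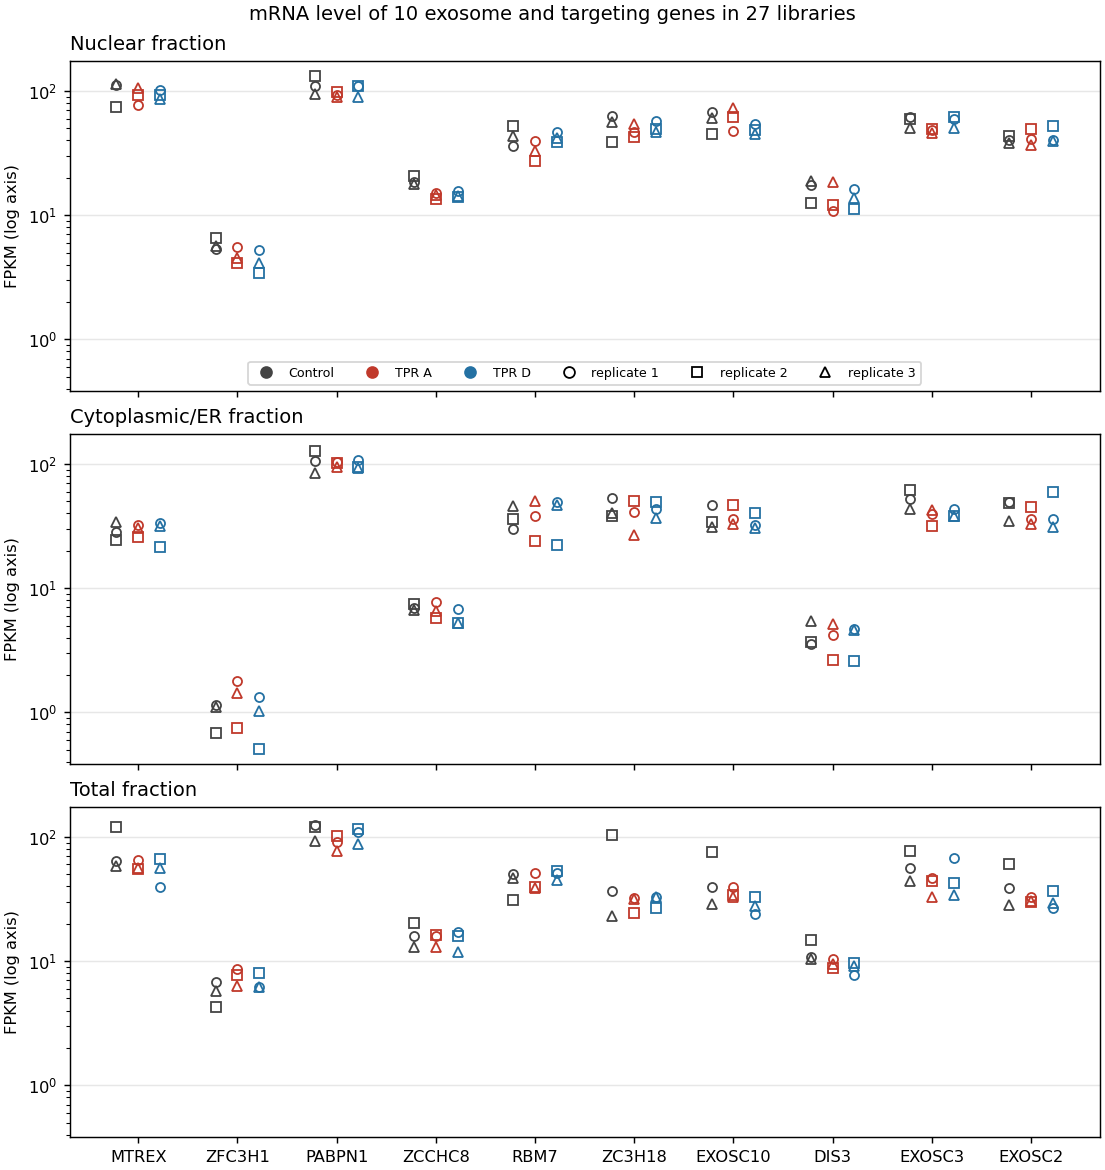
FPKM (log axis) of the 10 genes in each of the 27 libraries, with a panel for each fraction, a colour for each shRNA and a symbol for each replicate. PABPN1 had the highest and ZFC3H1 the lowest control mean in each panel, MTREX, ZFC3H1, ZCCHC8 and DIS3 dropped from the nuclear to the cytoplasmic/ER panel, and in the total panel the square of control replicate 2 was the highest of 9 libraries for 7 genes and the lowest for 2.

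The level of PABPN1 may include reads that cannot be given to it with certainty. Its gene, ENSG00000100836, lies at chr14:23790666-23795372 on the plus strand of GRCh37 (hg19), and the read-through gene BCL2L2-PABPN1 ends in the same exons. Of 1781 stretches of 31 bases in the canonical PABPN1 mRNA, 79.6% were also found in transcripts of the read-through gene, whose mean level was 2.95 FPKM. The letters where the mRNAs join their common part of 1448 bases are shown since only reads across or before this place tell them apart, with the common part in capitals.
PABPN1: cgccattgaggacccGGAGCTGGAAGCTAT
BCL2L2-PABPN1: ttccccagatcttgaGGAGCTGGAAGCTAT
RBM7 shared 11.3% and EXOSC3 6.79% of such stretches with read-through genes known only by an ID, which were at 0.678 and 0.226 FPKM. Over their whole gene span, MTREX, ZFC3H1, RBM7, EXOSC10, DIS3 and EXOSC3 also overlap genes on the opposite strand. The gene span of EXOSC3, chr9:37759231-37832114, is wider than that of its canonical transcript. The kit keeps strand, but whether the quantification used it is not given in the sources used here.

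The first comparison asked where in the cell the mRNAs of these genes lay, as the log2 difference of nuclear and cytoplasmic/ER FPKM, called N/C. In control cells, the mRNAs of 5 of 10 members were higher in the nuclear fraction by limma at an adjusted p under 0.05 and none was lower, where 20.2% of all genes were called higher in the nucleus. These were ZFC3H1, DIS3, MTREX, ZCCHC8 and EXOSC10. The median N/C was 0.48 over the members and -0.01 over all genes tested. Each complex was divided, since the partners PABPN1 and RBM7 and both ring subunits were not called.

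Coordinates printed here and below beside a gene ID are those of its canonical transcript, and the annotated gene can be wider. Of the PAXT members, ZFC3H1 (ENSG00000133858, chr12:72003379-72057628, minus strand) had the highest N/C of the 10 genes. Its nuclear values in control cultures were 5.36, 6.51 and 5.61 FPKM and its cytoplasmic/ER values 1.14, 0.679 and 1.09 FPKM, without overlap. This was a log2 N/C of 2.52 (SE 0.31, limma adjusted p = 6.23e-06), or 5.74-fold, above that of 98.9% of genes. PABPN1 was at 110, 132 and 94.4 FPKM in the nuclear and 106, 127 and 85.0 FPKM in the cytoplasmic/ER fraction, so the fractions overlapped (log2 N/C 0.12, 95% confidence interval -0.25 to 0.49). The N/C of ZFC3H1 was above that of PABPN1 in 9 of 9 cultures of any shRNA, by 1.66 to 3.02 on the log2 scale.

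MTREX (ENSG00000039123, chr5:54603817-54721407, plus strand) was at 111, 74.9 and 114 FPKM in the nuclear fraction of control cells and at 28.6, 24.5 and 34.2 FPKM in the cytoplasmic/ER fraction. The nuclear values lay above all cytoplasmic/ER values. The log2 N/C was 1.80 (SE 0.24, limma adjusted p = 1.47e-05), or 3.49-fold, higher than in 96.2% of genes. In total RNA MTREX was at 63.4, 120 and 58.7 FPKM, the second value coming from the total library of control replicate 2.

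In the NEXT pair, ZCCHC8 (ENSG00000033030, chr12:122956147-122985479, minus strand) was at 18.7, 20.6 and 17.8 FPKM in control nuclei and at 6.97, 7.51 and 6.62 FPKM in the cytoplasmic/ER fraction. Its control cultures agreed closely, with a log2 N/C of 1.44, 1.49 and 1.45 (fitted 1.46, SE 0.18, limma adjusted p = 5.43e-06). RBM7 (ENSG00000076053, chr11:114271388-114281329, plus strand) was at 36.1, 52.1 and 43.3 FPKM in nuclei and at 29.9, 36.1 and 45.9 FPKM in the cytoplasmic/ER fraction, which overlap (log2 N/C 0.27, 95% confidence interval -0.33 to 0.88). ZCCHC8 was above RBM7 in N/C in 9 of 9 cultures, by 0.59 to 1.74. ZC3H18 (ENSG00000158545, chr16:88636811-88698372, plus strand), the link to the cap, had a log2 N/C of 0.26, 0.07 and 0.51 in the control cultures and was not called (limma adjusted p = 0.535).

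Both nucleases were called. DIS3 (ENSG00000083520, chr13:73326307-73356038, minus strand), the nuclease at the base of the nuclear ring, had 17.4, 12.5 and 18.8 FPKM in control nuclei and 3.58, 3.69 and 5.40 FPKM in the cytoplasmic/ER fraction. Its log2 N/C was 1.96 (SE 0.27, limma adjusted p = 1.51e-05), or 3.88-fold. EXOSC10 (ENSG00000171824, chr1:11126675-11159926, minus strand) was at 68.3, 45.3 and 60.8 FPKM in nuclei against 46.5, 34.2 and 31.3 FPKM, which overlap, with a smaller log2 N/C of 0.67 (SE 0.25, limma adjusted p = 0.0366). This call was lost when control replicate 1, control replicate 3 or TPR D replicate 3 was left out (limma adjusted p = 0.0955, 0.171 and 0.0544). The ring subunits EXOSC3 (ENSG00000107371, chr9:37779711-37785061, minus strand; log2 N/C 0.17, 95% confidence interval -0.28 to 0.63) and EXOSC2 (ENSG00000130713, chr9:133569167-133580279, plus strand; -0.07, -0.56 to 0.43) had the values nearest to 0, with PABPN1 between them.

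**Figure D2:**
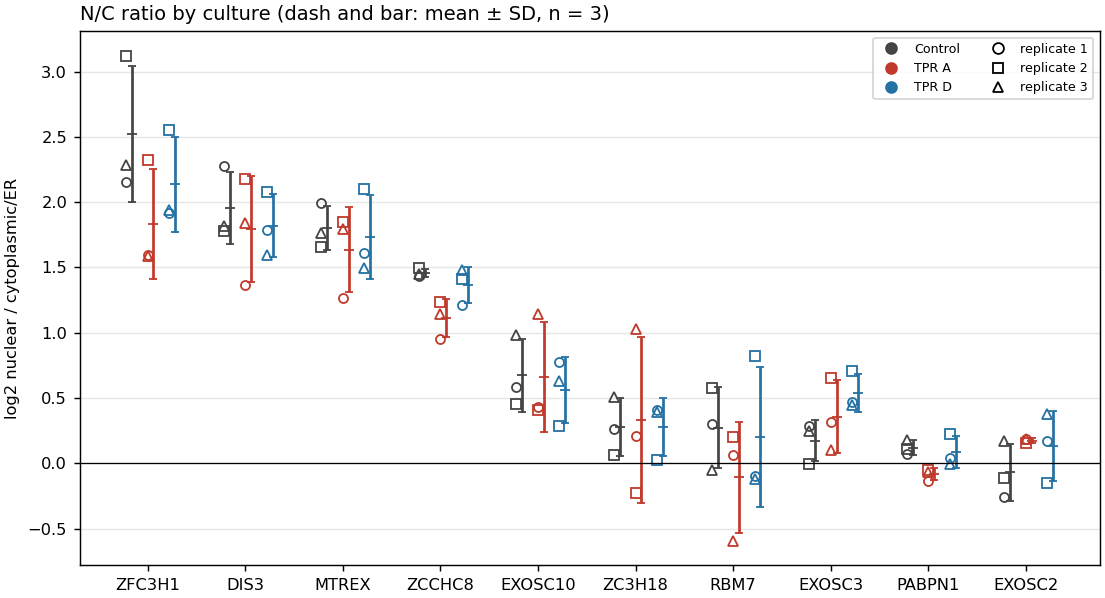
Log2 ratio of nuclear to cytoplasmic/ER FPKM of each gene in each of the 9 cultures, with a colour for each shRNA, a symbol for each replicate, and the mean and SD (n = 3) as a dash with a bar. Genes are ordered by their control mean. ZFC3H1, DIS3, MTREX, ZCCHC8 and EXOSC10 lay above 0 in 9 of 9 cultures.

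Without control replicate 2 the same 5 genes were called in control cells, where 15.6% of all genes were called higher in the nucleus. Their log2 N/C was then 2.22 for ZFC3H1, 2.05 for DIS3, 1.88 for MTREX, 1.44 for ZCCHC8 and 0.79 for EXOSC10. In TPR-depleted cells, 4 of 10 members were called higher in the nucleus with TPR A, where 15.2% of all genes were, and 4 of 10 with TPR D, where 17.1% were. ZFC3H1 (1.84 and 2.14), DIS3 (1.80 and 1.82), MTREX (1.64 and 1.73) and ZCCHC8 (1.11 and 1.37) were the members called with both. EXOSC10, at 0.66 and 0.56, had limma adjusted p-values of 0.0513 and 0.0907. They were 0.0148 and 0.0316 without control replicate 2, and that of EXOSC3 in TPR D cells, at 0.54, went from 0.0653 to 0.0494. The nuclear and cytoplasmic/ER libraries of a culture come from the same cells, and with the culture as a block EXOSC10 in TPR A (limma adjusted p = 0.0320) and EXOSC3 in TPR D cells (limma adjusted p = 0.0300) were also called. All 5 were above 0 in each of the 9 cultures, ZC3H18 and EXOSC3 in 8, EXOSC2 in 6, and RBM7 and PABPN1 in 5.

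All 5 called members had a pre-mRNA longer than the median of 28.352 kb over 12290 protein-coding genes, a feature the choice of genes did not use, and so had ZC3H18, which was not called. MTREX spans 117.591 kb with 27 exons, and ZFC3H1 54.25 kb with 35 exons and an mRNA of 7037 bases. The canonical transcript of DIS3 spans 29.732 kb and has an annotated mRNA of 10571 bases, and ZCCHC8 spans 29.333 kb with an mRNA of 4113 bases. At the other end, PABPN1 spans 4.707 kb with 7 exons, EXOSC3 5.351 kb with 4, RBM7 9.942 kb with 5 and EXOSC2 11.113 kb with 9. By mRNA length the division was less clean. The called EXOSC10 (2796 bases) was below the protein-coding median of 3318.5 bases, and RBM7 (3610) and ZC3H18 (3705), not called, were above it. Over the 10 members, the rank correlation of control N/C was 0.70 with pre-mRNA length and 0.90 with mRNA length. Over the protein-coding genes it was 0.41 and 0.51, so length and N/C moved together in these libraries in general. The correlations without control replicate 2 were 0.66 and 0.82 over the members and 0.33 and 0.42 over the protein-coding genes. These are correlations across genes that share the same libraries, given as a description.

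The members were also ranked within genes of like length, again by the canonical transcript. In the control cells, 7 of 10 members were above the upper quartile of N/C of the protein-coding genes in their own decile of pre-mRNA length, where 25% of genes are by construction. This cutoff was chosen after the values were seen. They were ZFC3H1, DIS3, ZCCHC8, MTREX, PABPN1, EXOSC3 and, just inside it, RBM7 (percentile 75.5). Of these, PABPN1, EXOSC3 and RBM7 were not called in N/C, and the medians of their deciles were below 0 (-0.67, -0.43 and -0.26). EXOSC10 was just below the upper quartile (72.5), and EXOSC2 (58.99) and ZC3H18 (46.1) were lower. ZC3H18 had the second longest canonical pre-mRNA of the 10, at 61.562 kb. It was the only member under the median of its length class, and without control replicate 2 it was above that median (55.1). By mRNA length, 5 of 10 were above the upper quartile, with MTREX (98.1), ZFC3H1 (98.4), ZCCHC8 (92.9), DIS3 (89.7) and EXOSC10 (79.3) as their percentiles. The counts without control replicate 2 were 7 and 5, but by pre-mRNA length RBM7 (65.3) was then below the upper quartile and EXOSC10 (75.7) above it.

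**Figure D3:**
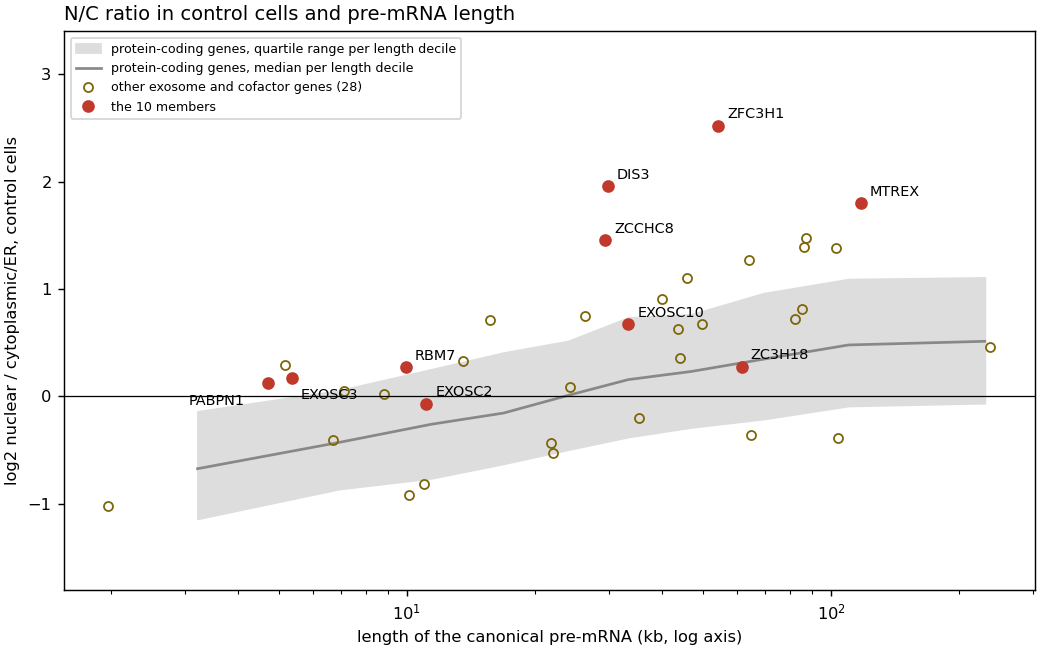
Log2 nuclear to cytoplasmic/ER ratio in control cells against the length of the canonical pre-mRNA (kb, log axis), with the 10 members in red, 28 other exosome and cofactor genes as open circles, and the median and quartile range of 12290 protein-coding genes per decile of length in grey. The median rose from -0.67 to 0.51 from the shortest to the longest decile, and ZFC3H1, DIS3, ZCCHC8 and MTREX lay above the grey band.

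The genes whose levels ran most like those of MTREX over the 27 libraries were NUP133 (Pearson r = 0.987), a nuclear pore component, MSH6 (0.986), a mismatch repair factor, and EPRS1 (0.986), a tRNA synthetase. For ZFC3H1 they were BTAF1 (0.984), NBPF12 (0.983) and RIF1 (0.981). The points are libraries of 3 fractions, so differences between fractions enter each correlation and favour genes with a like N/C. The control N/C of these 6 genes was from 1.51 to 3.06. The correlations were at least 0.981 in the 24 libraries without control replicate 2.

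The second comparison asked whether these genes changed when TPR was depleted. In total RNA, 0 of 10 members were called by limma with TPR A, with TPR D, with both shRNAs together or between the shRNAs. The shares of all genes called were 0.821%, 0.753%, 1.14% and 0.281%. At an unadjusted p under 0.05 the counts of members were 0, 1, 0 and 0, and those of all 14611 genes were 1847, 2137, 2351 and 1082. The 1 member was EXOSC10 with TPR D (log2 change -0.59, 95% confidence interval -1.11 to -0.07, limma adjusted p = 0.284). The control cultures had 39.8, 75.5 and 28.9 FPKM of EXOSC10 and the TPR D cultures 23.9, 32.7 and 27.8 FPKM, which overlap. The change of EXOSC10 was -0.24 without control replicate 2 (limma adjusted p = 0.845). No member then had an unadjusted p under 0.05 with TPR D, which 1315 of 14611 genes had.

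The total levels of 8 of 10 members had a negative log2 change with both shRNAs together, and the median was -0.32 against -0.01 over all genes. ZC3H18 was at -0.50, EXOSC10 at -0.43 and MTREX at -0.38, while ZFC3H1 was at 0.43 and RBM7 at 0.21. The total library labelled control replicate 2 held the highest of 9 values of 7 members and the lowest of 2. ZC3H18, for instance, was at 36.4, 104 and 23.1 FPKM in control, 32.3, 24.4 and 31.4 FPKM in TPR A and 32.8, 26.8 and 32.6 FPKM in TPR D cultures. Without that culture the values were 0.08 for ZC3H18, -0.08 for EXOSC10, -0.09 for MTREX, 0.22 for ZFC3H1 and -0.04 for RBM7, and the median of the members was -0.08 against -0.02 over all genes. The confidence intervals of the changes with both shRNAs reached from 0.32 to 0.60 on either side of the estimate, without adjustment for the number of genes. Changes smaller than this were not detectable at this spread, and larger ones could also be missed after adjustment. EXOSC10 with TPR D, at -0.59 (confidence interval -1.11 to -0.07), was not called (limma adjusted p = 0.284).

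**Figure D4:**
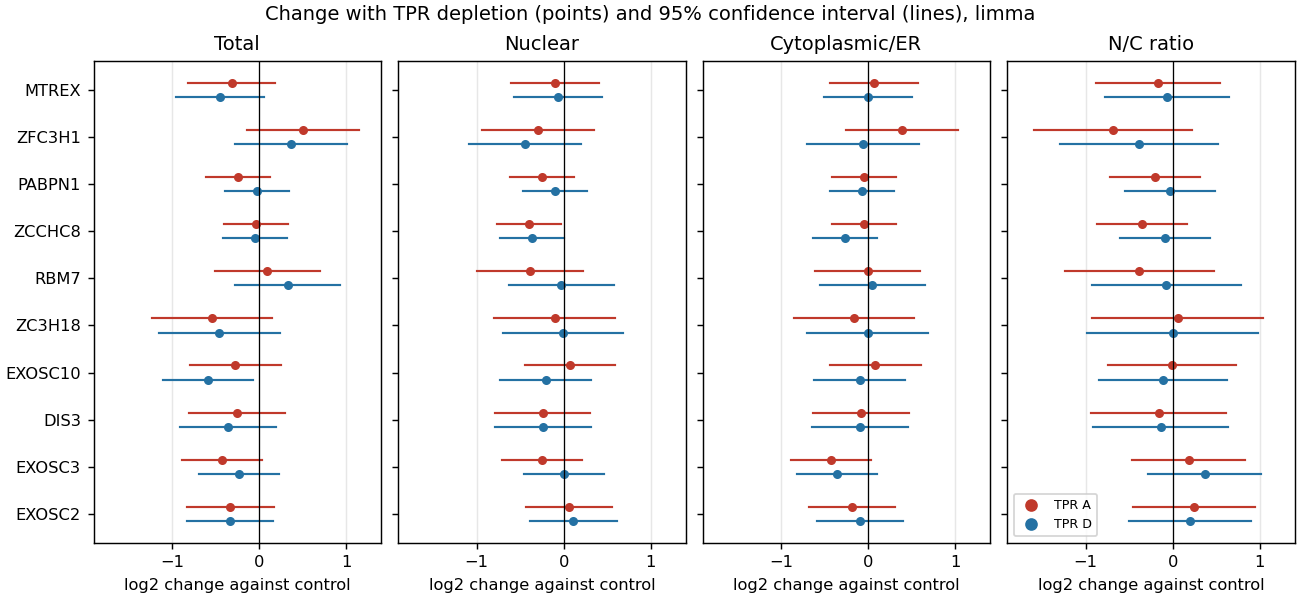
Log2 change of each gene with TPR A and TPR D against control in total, nuclear and cytoplasmic/ER RNA and in the N/C ratio, as points with 95% confidence intervals as lines from limma. Every estimate lay between -0.69 and 0.50, and the interval left out 0 only for EXOSC10 (TPR D, total) and ZCCHC8 (TPR A, nuclear).

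In nuclear RNA 0 of 10 members were called with TPR A, where 0.903% of genes were, and 0 of 10 with TPR D, where 0.479% were. At an unadjusted p under 0.05 the counts of members were 1 and 0, and those of all 14611 genes were 1781 and 1334. The 1 was the NEXT scaffold ZCCHC8, which was at 18.7, 20.6 and 17.8 FPKM in control nuclei, at 15.1, 13.6 and 14.5 FPKM with TPR A and at 15.7, 14.1 and 14.3 FPKM with TPR D. All 6 TPR-depleted cultures lay below all 3 control cultures, which held for 3.24% of genes in this direction and for no other member. The log2 change was -0.40 (SE 0.18, limma adjusted p = 0.360) for TPR A and -0.36 (SE 0.18, limma adjusted p = 0.554) for TPR D, and -0.33 and -0.29 without control replicate 2. In total RNA the change of ZCCHC8 was -0.04 and -0.05. Without control replicate 2, MTREX nuclei did not overlap either, at 111 and 114 FPKM in control against 77.8 to 106 FPKM in TPR-depleted cultures, and the share of genes was then 6.74%.

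In cytoplasmic/ER RNA 0 of 10 members were called with TPR A, where 0.623% of genes were, or with TPR D, where 0.575% were. None had an unadjusted p under 0.05, which 1695 and 1376 of 14611 genes had. The lowest estimates were those of the ring subunit EXOSC3. Its values were 51.8, 61.4 and 43.3 FPKM in control, 39.2, 31.5 and 42.7 FPKM in TPR A and 43.0, 37.9 and 38.0 FPKM in TPR D cultures. All TPR-depleted values were thus below the control values, but the distance of 42.7 or 43.0 to 43.3 FPKM was small, and the groups overlapped after scaling. The log2 change was -0.43 (limma adjusted p = 0.478) and -0.36 (limma adjusted p = 0.701).

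The N/C of the members did not pass the test for a change either, with 0 of 10 called for TPR A, TPR D and both shRNAs together. Here limma called 0% of all genes. The study described a subset of RNAs that became more nuclear, from DESeq2 fold changes compared between the shRNAs. It also tested classes of genes and followed chosen RNAs by FISH. Its main text gives no count of single genes called, so these are unlike measures. The lack of calls thus cannot show that the members kept their N/C. No member had an unadjusted p under 0.05, which 251 of 14611 genes had for both shRNAs. The fit took the nuclear and cytoplasmic/ER libraries of a culture as independent. With the culture as a block, 455 genes had such a p-value in limma for both shRNAs and 0 were called. The median of the members was -0.12 against -0.00 for all genes. The lowest value was that of ZFC3H1, with -0.69 (95% confidence interval -1.60 to 0.22) for TPR A and -0.39 (-1.30 to 0.52) for TPR D. In single cultures its log2 N/C was 2.16, 3.12 and 2.29 in control, 1.60, 2.32 and 1.59 in TPR A and 1.92, 2.56 and 1.94 in TPR D cells, and the groups overlapped. The control value of 3.12 came from replicate 2, and without it the change was -0.39 and -0.08. EXOSC3 (0.18 and 0.37) and EXOSC2 (0.24 and 0.20) had positive estimates with both shRNAs, and without that culture these were 0.09 and 0.28 and 0.22 and 0.18. Replicate 1 differs from replicates 2 and 3 in how its libraries are labelled. The N/C change of MTREX for both shRNAs was -0.56 in replicate 1 and 0.10 in replicates 2 and 3, and the change of DIS3 -0.70 and 0.12.

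Other listed genes were not called either. They were 28 further nuclear exosome and cofactor genes, 8 genes linked to cytoplasmic RNA decay, the SKI complex among them, and 14 spliced snoRNA host RNAs. By limma, none was called with either shRNA in total, nuclear or cytoplasmic/ER RNA or in N/C. At an unadjusted p under 0.05, 6 of the 28, 0 of the 8 and 0 of the 14 were found in total RNA for both shRNAs together, as were 16.1% of all genes. These were 2, 0 and 0 without control replicate 2, and 8.55% of all genes. For both shRNAs in total RNA, the 2 lowest values of the 28 were those of the ring subunits EXOSC5 (log2 change -0.69, limma adjusted p = 0.252) and EXOSC6 (-0.54, adjusted p = 0.230 in limma). The 2 highest were those of the PAXT-associated RBM27 (0.53, adjusted p = 0.247 in limma) and the EXOSC10 partner MPHOSPH6 (0.36, adjusted p = 0.509 in limma). Without control replicate 2 these genes were at -0.19, -0.19, 0.36 and 0.41, in the same order.

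In control cells 12 of the 28 differed in N/C, where 39.4% of all genes did. Of these, 10 were higher and 2 lower in the nucleus, where 20.2% and 19.2% of all genes were. Chosen after their values were seen, the highest were RBM26 (1.48), a relative of RBM27, the nuclear exonuclease XRN2 (1.39) and the MTREX partner NVL (1.39), and those lower were the ring subunits EXOSC4 (-1.02) and EXOSC1 (-0.91). Without control replicate 2, 9 of the 28 were called, all higher, and both lower calls were lost (EXOSC4 -0.72, limma adjusted p = 0.126, and EXOSC1 -0.69, limma adjusted p = 0.0811). Of the 8 cytoplasmic genes 3 were higher in the nuclear fraction, among them, also named after its value was seen, the cytoplasmic exonuclease XRN1 (2.07), and 2 without control replicate 2. The snoRNA hosts, a class with known PAXT substrates, had 8 of 14 lower and 2 higher in the nucleus, and 5 lower and 0 higher without control replicate 2, where 14.2% and 15.6% of all genes were. Their N/C change with both shRNAs was positive for 13 of 14, with a median of 0.56 against -0.00 over all genes. By limma 0 were called, and 2 had an unadjusted p under 0.05, as had 251 of 14611 genes. Without control replicate 2 the change was positive for 14 of 14, with a median of 0.58. The share of all genes with a positive change is not given here, and the hosts were not compared with other RNAs of like length. For long noncoding RNAs with few introns or from short transcripts, the study reported a higher N/C with TPR depletion. A link of the hosts' change to PAXT was not tested.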

How the data were processed

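Sequencing reads of poly(A)+ RNA from U2OS cells were assigned to transcripts with Salmon and summed to genes with tximport, per the study's methods and the submitters' processing notes. The study's transcripts came from an older GENCODE release than the one used here. The authors deposited FPKM for 34464 genes in 27 libraries, named by shRNA, fraction and replicate. No column of the table was without a sample. The authors' fold changes came from DESeq2 and were not used. The read counts were not analysed here, so the size of 1 read was taken from low FPKM values of 10173 genes with 1 transcript, where 91.1% of 41596 values of 1 to 5 reads lay within 0.1 of a whole number.

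Gene IDs without their version were matched to GENCODE release 44 on GRCh37, the build the authors name as hg19. Of these, 32776 were found and 1688 were not, and the 10 members all were. A mean above 1 FPKM was required, and 13 mitochondrial genes were dropped. Median-of-ratios factors scaled the libraries, and values were transformed as log2(FPKM + 0.1), so changes of low genes are understated. Levels printed in FPKM are as deposited. Each comparison was a contrast of 1 fit over 9 groups of 3 (limma 3.58.1 in R 4.3.3, eBayes with trend), with Benjamini-Hochberg adjustment over 14611 genes and a threshold of 0.05. P-values measure the spread between replicate cultures. Python 3.11.15 and matplotlib 3.10.9 did the rest, and the fit was tested on simulated data.

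The members, the lists of other genes and the alternatives were chosen with earlier results of these data known. Named are the 10 members, TPR, the 3 genes most like MTREX and ZFC3H1, and list genes called in a change or, since none was, the 2 highest and 2 lowest in total RNA. Another 6 list genes were named for their N/C in control cells after their values were seen. Deviations of cultures with the same replicate number correlated over 0.1 in every pair in total RNA of control and TPR A (0.137 to 0.324) and between TPR A and TPR D in nuclear (0.131 to 0.266) and cytoplasmic/ER RNA (0.398 to 0.597), and not in the N/C ratio.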

Additional observations from a re-analysis of the deposited data

How the results depend on the processing

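The count of members called higher in the nucleus was 4 or 5 in control, 4 or 5 in TPR A and 4 to 6 in TPR D cells over 18 of 19 alternatives (values as deposited, other pseudocounts and minimums, no trend, blocks, fewer samples, each culture left out), and 0 members were called for any change with TPR depletion in any alternative that gave it. DIS3, MTREX and ZCCHC8 were called in the 18 alternatives that gave an N/C within a group, and ZFC3H1 in 17, as its mean was below the minimum of 5 FPKM and it was not tested there. EXOSC10 in control cells was lost as deposited (adjusted p = 0.0609 in limma), with no minimum (0.0984) and without control replicate 1, control replicate 3 or TPR D replicate 3 (0.0544 to 0.171). With the replicate block the counts were 5, 5 and 5, with EXOSC10 added in TPR A (adjusted p = 0.0387 in limma) and EXOSC3 in TPR D cells (0.0286), and 0 for every change. With the culture as a block EXOSC10 in TPR A and EXOSC3 in TPR D cells were called too. Cultures of different shRNAs with the same number were not paired in N/C by the check. Of 2228 alternative values of a change 147 had the other sign, none called. The nuclear and total libraries of control replicate 2 were left out as an alternative added after the data were seen, and so were the values within replicate 1 and within 2 and 3. Each member had an estimated 114 or more reads in every library if the canonical mRNA is taken as its length. With 3 cultures a group the confidence interval of a change with 1 shRNA reached 0.37 to 0.69 on either side.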
